A study of Mus musculus with 9 samples.

Results

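The BTB zinc finger genes whose symbol is Zbtb followed by a number were examined, and 40 such protein-coding genes were found. All 40 passed the filter on low counts, among 15267 protein-coding genes tested. The opposite-strand gene Zbtb8os does not belong to the family and was not counted. A BTB zinc finger protein carries an N-terminal BTB domain, through which it pairs with other BTB proteins and recruits corepressor complexes, and C-terminal zinc fingers, which read DNA sequence. Most members are known as transcriptional repressors, and in the brain they include regulators of cortical neuron differentiation, hippocampal patterning and glial fate.

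RNA was sequenced from the cytoplasmic fraction of cortex taken at postnatal day 0 from mice heterozygous for the knock-in (KI) allele CELF2 p.R493H, which all 9 libraries share. In RNA immunoprecipitation (RIP), an antibody pulls a protein out of a lysate together with the RNA attached to it. The 3 groups, with 3 libraries each, were RNA recovered with 10 µg of rabbit antibody against the RNA-binding protein CELF2 (CELF2-KI RIP), RNA recovered with 10 µg of normal rabbit IgG (IgG RIP), each after a 3-hour incubation, and RNA from a reserved aliquot of the lysate (input). No CELF2 RIP from wild-type mice was analysed here, heterozygous animals also carry the normal allele, and the labels do not say how many animals went into a library. The libraries are labelled as biological replicates. Each p-value comes from a test that sets the difference between groups against the spread between replicates, estimated from all 9 libraries.

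Protein-coding estimated counts ranged from 13523208 to 16840312 in CELF2-KI RIP, from 9347321 to 14965243 in IgG RIP and from 55250740 to 78514685 in input. The 45S pre-rRNA took 34.95%, 32.95% and 10.82% of all counts in IgG RIP replicates 1, 2 and 3, and at most 1.76% in any other library. IgG RIP replicate 3 also stood apart in its zeros. It listed 574 tested genes at 0, of which 125 had a level of at least 2 CPM (counts scaled to library size) in the other 2 IgG RIP libraries, against at most 21 such genes in any other library. Zbtb2, Zbtb7b, Zbtb7c, Zbtb14 and Zbtb42 were among its zeros, and Zbtb42 was also at 0 in IgG RIP replicate 2. A count of 0 in replicate 3 allows a level of up to 0.215 CPM, for counting error only. Since a 0 in estimated counts can also be a failed estimate, these 5 genes are given with and without that library. Celf2 mRNA itself averaged 638 ± 164 CPM (SD, n = 3) across CELF2-KI RIPs, 233 ± 33.4 in IgG RIPs and 296 ± 14.9 in input.

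Marker sums of several cell types differed between CELF2-KI RIPs and the controls, whereas those of endothelium overlapped in all 3 groups. The summed level of 7 excitatory neuron markers was 1671 to 2279 CPM in CELF2-KI RIPs, 894 to 1041 in IgG RIPs and 971 to 1135 in input, and 4 of the 7 were called higher than in IgG RIP. The 6 radial glia markers summed to 165 to 256, 454 to 498 and 572 to 615 CPM, with 3 of 6 called lower than in IgG RIP. The 5 erythroid markers tested summed to 92.7 to 95.0, 366 to 584 and 877 to 1135 CPM, with 5 of 5 lower than in IgG RIP. The 6 inhibitory neuron markers summed to 533 to 607, 333 to 380 and 443 to 461 CPM, the 5 microglia markers tested to 93.4 to 127, 58.1 to 78.3 and 129 to 163, and the 5 endothelial markers to 158 to 229, 147 to 325 and 198 to 309. Against IgG RIP, 1 inhibitory neuron marker was called higher and 0 lower. For microglia 1 was higher and 2 lower, and for endothelium 0 were higher and 1 lower. Of all tested genes, 13.4% were called higher and 13.6% lower than IgG RIP. The part of cell type in the Zbtb results was not tested. In such bulk RNA a marker's level in input does not separate fewer cells of a type from less RNA per cell, which cannot be told apart here, and the RIPs were made from the same lysates as the input.

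A gene was called when edgeR's quasi-likelihood test gave a Benjamini-Hochberg false discovery rate (FDR) under 0.01 over all tested genes and the groups differed at least 2-fold. Levels are CPM on library sizes scaled by the trimmed mean of M values (TMM), and they are compared only within a gene. The comparison with IgG RIP asks which mRNAs the CELF2 antibody recovered beyond nonspecific capture, and the comparison with input asks which were recovered beyond their share of cytoplasmic RNA. Because both use the same CELF2-KI RIP libraries, they are not independent of each other.

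Against IgG RIP, 9 of the 40 Zbtb mRNAs (22.5%) passed as higher in CELF2-KI RIP, beside 13.4% of all tested genes. These were Zbtb5, Zbtb6, Zbtb8b, Zbtb18, Zbtb22, Zbtb33, Zbtb34, Zbtb39 and Zbtb43. A single member, Zbtb48, was called lower (2.5%, beside 13.6% of all tested genes). The median log2 fold change was 0.62, compared with -0.06 over all tested genes. Members spread from -2.16 to 2.81, with quartiles at 0.03 and 1.13, and 31 of 40 lay above 0, as did 48.0% of all tested genes.

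Against input, 13 members (32.5%) were called higher, beside 14.6% of all tested genes. They were Zbtb4, Zbtb5, Zbtb8b, Zbtb16, Zbtb18, Zbtb20, Zbtb22, Zbtb34, Zbtb37, Zbtb39, Zbtb41, Zbtb44 and Zbtb46. Zbtb12 was the single member called lower (2.5%, beside 15.5%). The median log2 fold change was 0.94, compared with 0.19 over all tested genes, and 33 of 40 members lay above 0, as did 56.4% of all tested genes.

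Zbtb5, Zbtb8b, Zbtb18, Zbtb22, Zbtb34 and Zbtb39 were called higher than both controls. These 6 make up 15.0% of the members, beside 7.58% of all tested genes. By edgeR 0 members were called lower than both controls, beside 9.54% of all tested genes. DESeq2's Wald test also gave 0, and at an unadjusted p under 0.05 Zbtb3 and Zbtb12 were below both. For 23 of the 40 members each CELF2-KI RIP library exceeded every control library, an arrangement held by 25.2% of all tested genes. The reverse arrangement was held by Zbtb12 alone, and by 19.9% of all tested genes.

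These counts depend on how libraries are scaled. With total counts, the calls higher and lower became 3 and 1 against IgG RIP and 2 and 2 against input. With upper-quartile scaling they were 5 and 1 against IgG RIP and 4 and 1 against input, with DESeq2 size factors 8 and 1, and 6 and 1, and with TMM over coding and noncoding genes 5 and 1, and 4 and 2. The shares of all tested genes called higher moved as well, to 6.14% against IgG RIP and 3.48% against input with total counts, 7.94% and 7.71% with the upper quartile, 12% and 10.3% with DESeq2 size factors, and 8.84% and 4.63% with TMM over coding and noncoding genes. Beside these, the shares of the 40 members were 7.5% and 5.0%, 12.5% and 10.0%, 20.0% and 15.0%, and 12.5% and 10.0%. The median of all tested genes moved in the same settings, by -0.37 over IgG RIP and -0.46 over input under total counts, where the Zbtb medians were 0.25 and 0.47. Zbtb34 was called higher than both controls in 4 of 4 other scalings, Zbtb5 in 3 of 4, and Zbtb8b, Zbtb18, Zbtb22 and Zbtb39 in 0 of 4. Of the calls against input alone, those of Zbtb4, Zbtb37, Zbtb44 and Zbtb46 held in 0 of 4, those of Zbtb16 and Zbtb41 in 1 of 4 and that of Zbtb20 in 3 of 4.

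**Figure D1:**
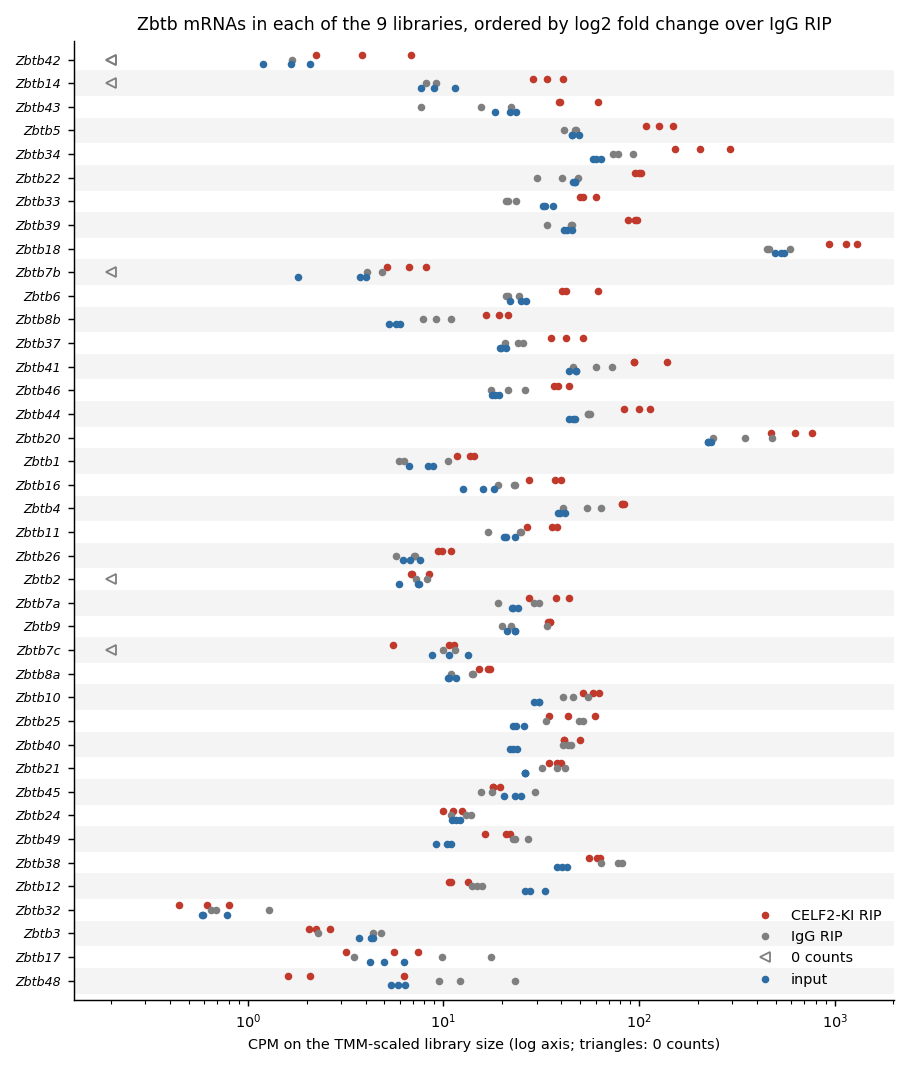
Level of each of the 40 Zbtb mRNAs in the 9 libraries, as CPM on the TMM-scaled library size on a log axis, with red points for CELF2-KI RIP, grey for IgG RIP and blue for input (3 libraries each), ordered by log2 fold change over IgG RIP. Open triangles at the left edge mark libraries with 0 counts, all of them IgG RIP; for 23 members the red points all lie to the right of the others.

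**Figure D2:**
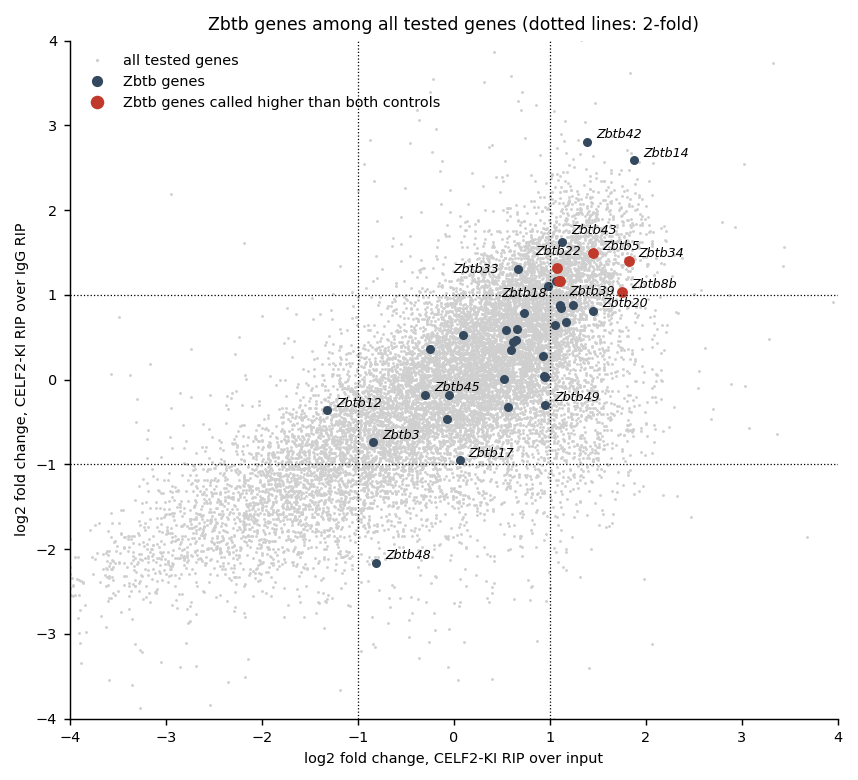
Log2 fold changes for CELF2-KI RIP over input (horizontal) and over IgG RIP (vertical), with all tested genes as small grey points, Zbtb genes as dark points and the 6 called higher than both controls in red; 139 tested genes fall outside the axes, which end at 4 in each direction. The axes share the CELF2-KI RIP libraries, so the slope of the cloud is not a result, and most Zbtb points lie to the upper right of the origin.

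Among the 4 members known for roles in cortical and neural development, 1 was called higher than IgG RIP and 3 were called higher than input. Beside these stood 13.4% and 14.6% of all tested genes. Differences between this and the following small role groups were not tested. Zbtb18, also known as RP58, is a repressor needed for the differentiation and migration of cortical projection neurons. Its gene lies at chr1:177442351-177450764 in GRCm38.p6. Zbtb18 mRNA stood at 934, 1303 and 1148 CPM in CELF2-KI RIPs, 450, 462 and 594 in IgG RIPs, and 548, 495 and 535 in input. Each CELF2-KI RIP library exceeded all 6 controls, and the IgG RIP and input libraries overlapped. The log2 fold change of Zbtb18 was 1.17 ± 0.15 (SE) over IgG RIP (FDR = 0.000107) and 1.10 ± 0.15 over input (FDR = 0.000131). Under the 4 other scalings it ranged from 0.79 to 1.10 over IgG RIP and from 0.63 to 0.96 over input, where it was called in 0 of 4. With curated transcripts only, Zbtb18 was 0.98 over IgG RIP, under the 2-fold line, and 1.07 over input, where its call held.

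Zbtb20 specifies hippocampal pyramidal neurons and acts in cortical progenitors. Zbtb20 mRNA stood at 471, 766 and 630 CPM in CELF2-KI RIPs, 480, 239 and 347 in IgG RIPs, and 225, 234 and 226 in input. CELF2-KI RIP lay above input in every library but overlapped IgG RIP, because IgG RIP replicate 1 exceeded CELF2-KI RIP replicate 1, and the IgG RIP libraries also lay above all input libraries. Over input the log2 fold change was 1.45 ± 0.24 (FDR = 0.000493) and 0.81 ± 0.24 over IgG RIP, which did not pass (FDR = 0.0148). Without IgG RIP replicate 1, Zbtb20 was called higher than IgG RIP as well. With curated transcripts only, which held 18.4% of its counts, Zbtb20 was 0.42 over input and 0.30 over IgG RIP. Its call over input was lost there, so this call rests on predicted transcripts.

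Zbtb16, also known as PLZF, holds neural progenitors in an undifferentiated state and is better known from spermatogonial stem cells and innate-like lymphocytes. It stood at 27.4, 37.3 and 39.9 CPM in CELF2-KI RIPs, 19.1, 23.1 and 23.0 in IgG RIPs, and 15.9, 12.6 and 18.2 in input. The 3 groups did not overlap, with CELF2-KI RIP at the top and input at the bottom. The difference from input was called (log2 fold change 1.17 ± 0.19, FDR = 0.000418), and that from IgG RIP was not (0.68 ± 0.19, FDR = 0.0114). Zbtb45, a regulator of glial differentiation, stood at 17.9, 18 and 19.5 CPM in CELF2-KI RIPs, 15.5, 17.7 and 29.3 in IgG RIPs, and 23.1, 20.4 and 24.8 in input. CELF2-KI RIP overlapped IgG RIP and lay below input in all 3 libraries, and neither difference passed (log2 fold changes -0.18 ± 0.22, FDR = 0.527, and -0.30 ± 0.22, FDR = 0.255).

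Of the 3 members known to bind methylated DNA, Zbtb33 was called higher than IgG RIP and Zbtb4 higher than input. The same calls were held by 13.4% and 14.6% of all tested genes. Zbtb33, known as Kaiso, stood at 51.5, 60.3 and 50.2 CPM in CELF2-KI RIPs, 21, 21.3 and 23.4 in IgG RIPs, and 36.3, 33.0 and 32.3 in input. All 3 groups were separate, and input lay between the others, an order different from that of Zbtb16. Over IgG RIP the log2 fold change was 1.3 ± 0.13 (FDR = 2.34e-05) and 0.67 ± 0.12 over input (FDR = 0.00092), the latter under 2-fold. Zbtb4 averaged 82.6 ± 1.42 CPM in CELF2-KI RIPs, 53.0 ± 11.6 in IgG RIPs and 39.9 ± 1.65 in input (SD, n = 3), with a log2 fold change of 1.05 ± 0.15 over input (FDR = 0.000207). Without input replicate 2 it fell under 2-fold (0.91), and with curated transcripts only it kept its size without passing the FDR threshold. Zbtb38 averaged 59.7 ± 3.75, 74.4 ± 9.36 and 40.5 ± 2.59 CPM, and was called in neither comparison (log2 fold changes -0.32 over IgG RIP and 0.56 over input).

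Of the 4 members known to control growth arrest and cell cycle genes, Zbtb5 alone was called in CELF2-KI RIP. Zbtb5, a repressor of the cyclin-dependent kinase inhibitor gene Cdkn1a, lies at chr4:44991242-45012412. It stood at 109, 149 and 126 CPM in CELF2-KI RIPs, 47.0, 41.6 and 47.5 in IgG RIPs, and 45.3, 45.7 and 49.4 in input. The controls overlapped each other, and every CELF2-KI RIP library was more than 2-fold above every control library. The log2 fold change of Zbtb5 was 1.49 ± 0.13 over IgG RIP (FDR = 1.53e-05) and 1.45 ± 0.13 over input (FDR = 1.38e-05), and its calls against both controls remained in 9 of 9 fits that left out a library.

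Zbtb49, an activator of Cdkn1a, was the single member called between the controls. It stood at 16.3, 21.8 and 20.9 CPM in CELF2-KI RIPs, 22.6, 27.1 and 23.1 in IgG RIPs, and 9.14, 11.0 and 10.4 in input. All IgG RIP libraries were above all CELF2-KI RIP libraries, and both were above input. The log2 fold change of IgG RIP over input was 1.25 ± 0.16 (FDR = 0.000396), while those of CELF2-KI RIP were 0.95 ± 0.16 over input (FDR = 0.000502, under 2-fold) and -0.30 ± 0.16 over IgG RIP (FDR = 0.135).

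Zbtb17, known as Miz-1 and a partner of Myc, stood at 5.60, 3.16 and 7.41 CPM in CELF2-KI RIPs, 17.6, 9.81 and 3.51 in IgG RIPs, and 4.97, 4.20 and 6.29 in input. IgG RIP spread widely and overlapped both other groups, and the log2 fold change over IgG RIP was -0.95 ± 0.51 (FDR = 0.138). Without IgG RIP replicate 3 it was -1.37 and called lower (FDR = 0.00838), and leaving out each library in turn gave -1.37 to -0.30. Zbtb2, a repressor of Cdkn1a, averaged 7.43 ± 0.911 CPM in CELF2-KI RIP and 6.94 ± 0.887 in input, and stood at 8.2, 7.24 and 0 in IgG RIP. Its log2 fold change over IgG RIP was 0.53 with that 0 and -0.06 without IgG RIP replicate 3, and neither passed.

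Of the 6 members known from blood and immune cells, 0 were called against IgG RIP and 1, Zbtb46, was called higher than input. By DESeq2's Wald test 0 were called against IgG RIP either, and at an unadjusted p under 0.05 Zbtb1 and Zbtb46 were above it. Among all tested genes, edgeR called 13.4% higher and 13.6% lower than IgG RIP, and 14.6% higher than input. Zbtb46, a marker of classical dendritic cells that is also expressed in endothelium, averaged 39.8 ± 3.80 CPM in CELF2-KI RIPs, 21.7 ± 4.31 in IgG RIPs and 18.4 ± 0.734 in input. Its log2 fold change over input was 1.11 ± 0.16 (FDR = 0.000198). The call of Zbtb46 was lost without input replicate 2 (0.97) and with curated transcripts only (0.30). Zbtb1, needed for lymphocyte development, averaged 13.2 ± 1.32, 7.59 ± 2.54 and 7.94 ± 1.15 CPM, with log2 fold changes of 0.79 and 0.73 that did not pass (FDR = 0.0171 and 0.0195). Zbtb25 averaged 46.0 ± 12.8 CPM in CELF2-KI RIPs, 44.9 ± 9.91 in IgG RIPs and 24.0 ± 1.55 in input, so that both RIPs lay above input without a call. Zbtb7a, which silences fetal globin genes, gave log2 fold changes of 0.47 and 0.65 that did not pass. Zbtb7b, the CD4 T cell lineage factor ThPOK, and Zbtb32, known from lymphocytes, were low throughout, at most 8.16 and 1.29 CPM in any library, and were not called.

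Of the 4 members known from telomeres and chromosome maintenance, 0 were called higher in CELF2-KI RIP by edgeR or by DESeq2's Wald test, and Zbtb10 and Zbtb40 were above input at an unadjusted p under 0.05. By edgeR, 13.4% of all tested genes were called higher than IgG RIP and 14.6% higher than input. Zbtb48, known as TZAP, binds telomeric repeats and promotes their trimming. It stood at 6.32, 2.08 and 1.61 CPM in CELF2-KI RIPs, 12.2, 9.51 and 23.2 in IgG RIPs, and 6.39, 5.37 and 5.89 in input. CELF2-KI RIP lay below IgG RIP in all libraries and overlapped input, while IgG RIP lay above input. Over IgG RIP the log2 fold change was -2.16 ± 0.49 (FDR = 0.00371), and that over input was -0.81 ± 0.48 (FDR = 0.166). The call was lost without CELF2-KI RIP replicate 2 or replicate 3. Zbtb10 and Zbtb40 bind telomeric repeats. Zbtb10 averaged 57.6 ± 5.61, 47.5 ± 7.05 and 30.1 ± 1.01 CPM and Zbtb40 44.1 ± 4.85, 43.1 ± 2.12 and 22.9 ± 0.893 CPM in CELF2-KI RIP, IgG RIP and input, with IgG RIP above input in every library and no call in any comparison. Zbtb24, in which mutations cause an immunodeficiency with centromere instability, averaged 11.2 ± 1.2, 12.7 ± 1.46 and 11.6 ± 0.57 CPM and was not called.

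The other 19 members, without a role assigned here, held 6 of the 9 calls higher than IgG RIP and 7 of the 13 higher than input. These were 31.6% and 36.8% of the 19, beside 13.4% and 14.6% of all tested genes. Zbtb34, at chr2:33406108-33431324, stood at 153, 293 and 205 CPM in CELF2-KI RIPs, 78.0, 74.0 and 93.7 in IgG RIPs, and 60.1, 58.5 and 64.2 in input. The 3 groups were separate, with input the lowest. Zbtb34 was called with log2 fold changes of 1.40 ± 0.21 (FDR = 0.000264) over IgG RIP and 1.83 ± 0.21 (FDR = 4.58e-05) over input. Zbtb43 lies 18963 bases from Zbtb34 on the same chromosome and stood at 39.4, 61.6 and 39.2 CPM in CELF2-KI RIPs, 22.1, 15.5 and 7.67 in IgG RIPs, and 23.6, 18.4 and 22 in input. CELF2-KI RIP was above both controls in every library, and IgG RIP overlapped input with its replicate 3 the lowest. Zbtb43 was called over IgG RIP (log2 fold change 1.63 ± 0.33, FDR = 0.00207) and not over input (1.13 ± 0.32, FDR = 0.0118). Without IgG RIP replicate 3 it was called against both, at 1.3 and 1.13.

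Zbtb22, at chr17:33916176-33919325, stood at 102, 100 and 95.2 CPM in CELF2-KI RIPs, 40.5, 48.9 and 30.0 in IgG RIPs, and 47.3, 46.0 and 47.3 in input. Zbtb39, at chr10:127739530-127747349, stood at 88.0, 95.6 and 97.3 CPM, 45.7, 44.8 and 34, and 42.6, 41.4 and 45.7 in the same order. For both genes the CELF2-KI RIP libraries lay close together, well above controls that overlapped each other, and IgG RIP replicate 3 was the lowest library. The log2 fold changes over IgG RIP were 1.32 ± 0.16 for Zbtb22 (FDR = 8.06e-05) and 1.17 ± 0.13 for Zbtb39 (FDR = 5.43e-05). Those over input were 1.08 ± 0.16 (FDR = 0.000214) and 1.11 ± 0.13 (FDR = 5.88e-05), and both were lost without input replicate 2.

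Zbtb8b, at chr4:129425765-129446969, stood at 16.6, 21.5 and 19.3 CPM in CELF2-KI RIPs, 7.88, 9.12 and 11.0 in IgG RIPs, and 5.28, 5.75 and 6.02 in input. The groups were separate and ordered from CELF2-KI RIP down to input. Over IgG RIP the log2 fold change was 1.04 ± 0.18 (FDR = 0.000672) and 1.75 ± 0.18 over input (FDR = 2.34e-05). Its neighbour Zbtb8a, 47737 bases away, averaged 16.5 ± 1.15, 13.0 ± 1.85 and 10.9 ± 0.596 CPM, with log2 fold changes of 0.35 and 0.60 that were under 2-fold.

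The largest fitted changes over IgG RIP belonged to members with zeros in that group. Zbtb14, a repressor that binds GC-rich promoters, stood at 34, 40.8 and 28.7 CPM in CELF2-KI RIPs, 9.14, 8.13 and 0 in IgG RIPs, and 11.5, 8.98 and 7.67 in input. Every CELF2-KI RIP library was above every control, and the IgG RIP libraries other than replicate 3 lay within the input range. With all 9 libraries Zbtb14 did not pass (log2 fold change 2.59 ± 0.80, FDR = 0.0182 over IgG RIP, and 1.88 ± 0.74, FDR = 0.0497 over input). Without IgG RIP replicate 3 it was called against both, at 1.99 (FDR = 7.48e-05) and 1.88 (FDR = 2.39e-05). Zbtb42 stood at 2.24, 6.85 and 3.84 CPM in CELF2-KI RIPs, 1.69, 0 and 0 in IgG RIPs, and 2.07, 1.2 and 1.67 in input. CELF2-KI RIP was above all controls, and the counts behind the IgG RIP values were 27, 0 and 0. Its log2 fold change over IgG RIP was 2.81 ± 1.02 (FDR = 0.0377) and stayed without a call when IgG RIP replicate 3 was left out (2.19, FDR = 0.0446). Without IgG RIP replicate 1 the remaining IgG RIP libraries were both at 0 and Zbtb42 was called higher, with a fitted 10.22 that rests on those zeros and is no bound. Zbtb7b and Zbtb7c, at 0 in IgG RIP replicate 3, gave log2 fold changes over IgG RIP of 1.16 and 0.36 with that library, and 0.56 and -0.23 without it.

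Zbtb12 was the member furthest below input. It stood at 10.9, 10.7 and 13.3 CPM in CELF2-KI RIPs, 15.8, 14.8 and 14.0 in IgG RIPs, and 26.1, 27.7 and 32.9 in input. The groups were separate and in the reverse of the order seen for Zbtb8b. It was called at a log2 fold change of -1.32 ± 0.15 over input (FDR = 4.87e-05) and did not pass over IgG RIP (-0.36 ± 0.15, FDR = 0.0711). Zbtb3 averaged 2.30 ± 0.288, 3.82 ± 1.35 and 4.12 ± 0.376 CPM, with libraries at 2.24, 2.62 and 2.05 in CELF2-KI RIPs, 4.38, 2.28 and 4.80 in IgG RIPs, and 4.39, 3.69 and 4.29 in input. CELF2-KI RIP lay below input in all 3 libraries and overlapped IgG RIP, and Zbtb3 was not called.

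Several further members lay above every control library without a call against both controls. Zbtb6 averaged 48.2 ± 11.8 CPM in CELF2-KI RIP against 22.3 ± 1.83 in IgG RIPs and 24.5 ± 2.22 in input. It was called over IgG RIP (log2 fold change 1.11, FDR = 0.000458) and was under 2-fold over input (0.98, FDR = 0.000806). Zbtb26, whose gene is 1249 bases from Zbtb6, averaged 10.0 ± 0.764, 6.66 ± 0.789 and 6.88 ± 0.699 CPM and was not called. Zbtb37, Zbtb41 and Zbtb44 were called over input, with log2 fold changes of 1.11, 1.24 and 1.12, and gave 0.88, 0.88 and 0.84 over IgG RIP, under 2-fold. Zbtb9 and Zbtb11 gave 0.45 and 0.60 over IgG RIP and 0.62 and 0.66 over input. Zbtb21 stood level between the RIPs (log2 fold change 0.01 ± 0.13 over IgG RIP) and above input in both.

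Between the controls, Zbtb49 was the only one of 40 members called (2.5% higher, beside 6.79% of all tested genes), and 0 were called lower, beside 5.0% of all tested genes. At an unadjusted p under 0.05, 13 members differed in either direction. By DESeq2's Wald test Zbtb12 was called lower. The median log2 fold change of IgG RIP over input was 0.18, and 23 members lay above 0, as did 49.8% of all tested genes. All 3 IgG RIP libraries were above all 3 input libraries for 12 members, against 27.1% of all tested genes, and below them for Zbtb12 and Zbtb33, against 29.4%.

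High values came more often from a single library than from the others. CELF2-KI RIP replicate 2 was the highest of its group for 26 of 40 members (65.0%), against 42.4% of all tested genes. Without it, 6 of 40 members were called higher than IgG RIP and 11 higher than input. The share of all tested genes also fell, from 13.4% to 11.3% over IgG RIP and from 14.6% to 10.9% over input. Zbtb6, Zbtb8b and Zbtb43 lost their calls against IgG RIP, and Zbtb18 and Zbtb37 theirs against input.

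The family was set beside other gene lists in the same fit. Of 364 tested genes named Zfp and a number, which carry zinc fingers mostly without a BTB domain, 28 were called higher and 20 lower than IgG RIP, with a median log2 fold change of 0.06. Against input, 59 were higher and 16 lower, and 5.77% were higher than both controls. Of 34 tested genes named Klhl and a number, which carry a BTB domain without zinc fingers, 7 were higher and 1 lower than IgG RIP, 11 were higher and 0 lower than input, and 20.6% were higher than both, with medians of 0.26 and 0.69. The 8 BTB zinc fingers with other symbols, including Bcl6, Hic2 and Patz1, had 1 member called, higher than input, with medians of 0.47 and 0.37. Of 26 genes for corepressors and partners, such as Ncor1, Sin3a and Hdac3, 2 were higher and 1 lower than IgG RIP, and 2 higher and 3 lower than input, with medians of -0.08 and 0.25. Differences between these lists were not tested.

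**Figure D3:**
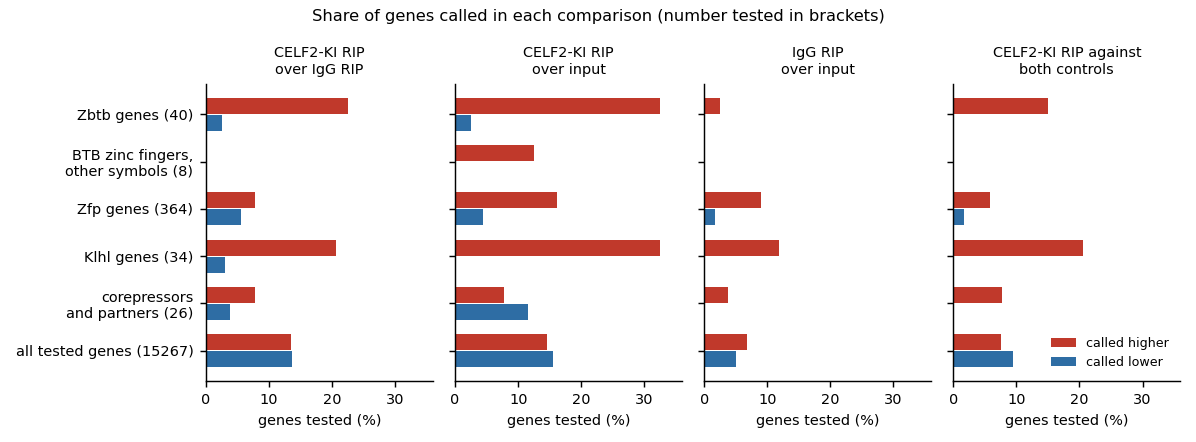
Percentage of tested genes called higher (red) and lower (blue) in each comparison, for the Zbtb genes, 4 comparison lists and all tested genes, with the number tested in brackets. Against input 32.5% of Zbtb genes and 14.6% of all tested genes were called higher, and 2.5% and 15.5% lower; the differences between lists were not tested.

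The gene values sum several transcript rows. The 40 genes had 168 rows, of which 110 carry predicted rather than curated RefSeq accessions, and 12 genes had a single row. In 11 genes under 50% of the counts fell on curated rows. Counts of Zbtb18 rested on curated rows in every library, and its leading curated transcript held 80.3% to 88.8% of them. For Zbtb20 the curated share was 10.4% to 14.0% in CELF2-KI RIPs, 10.8% to 25.7% in IgG RIPs and 20.8% to 25.6% in input. With curated transcripts only, Zbtb6, Zbtb8b, Zbtb18 and Zbtb43 lost their calls over IgG RIP, and Zbtb4, Zbtb8b, Zbtb20 and Zbtb46 theirs over input. The lower calls of Zbtb48 over IgG RIP and Zbtb12 over input were also lost, as was the higher call of Zbtb49 in IgG RIP over input. Zbtb37 gained a call over IgG RIP and Zbtb40 over input. Libraries were rescaled in this fit, and 9.92% and 9.61% of all tested genes were called higher than IgG RIP and input. Curated rows held 100%, 93.5% and 96.7% of the counts of Zbtb6, Zbtb18 and Zbtb43. On the same counts, Zbtb6 moved from 1.11 to 0.96 over IgG RIP.

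The counts of Zbtb45 sat on different transcripts in the groups, while its total did not pass the test. Its curated transcript held 5.65%, 13.8% and 0.0% of the gene's counts in CELF2-KI RIPs, 2.84%, 14.3% and 87.6% in IgG RIPs, and 58.0%, 64.3% and 52.1% in input. IgG RIP replicate 3 thus differed from the other 2 IgG RIP libraries, and the share was not tested. Zbtb48 also rested on different rows, since its curated transcript held 50.7% to 77.1% of counts in input, 0.0% in all IgG RIP libraries, and 32.5%, 0.02% and 0.0% in CELF2-KI RIP. Zbtb8b had 2.08% to 5.44% of its counts on the curated transcript in CELF2-KI RIP, against 14.0%, 12.2% and 2.24% in IgG RIPs and 14.6% to 16.1% in input. With curated transcripts only, its log2 fold change turned to -0.62 over IgG RIP and -0.57 over input, so the Zbtb8b calls rest on predicted transcripts. Neither value was called, and both rest on few counts, since the whole gene had 207, 279 and 216 in CELF2-KI RIPs. Estimated counts of transcripts that share most of their sequence are uncertain, and how the counts were divided between such transcripts could not be checked here.

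**Figure D4:**
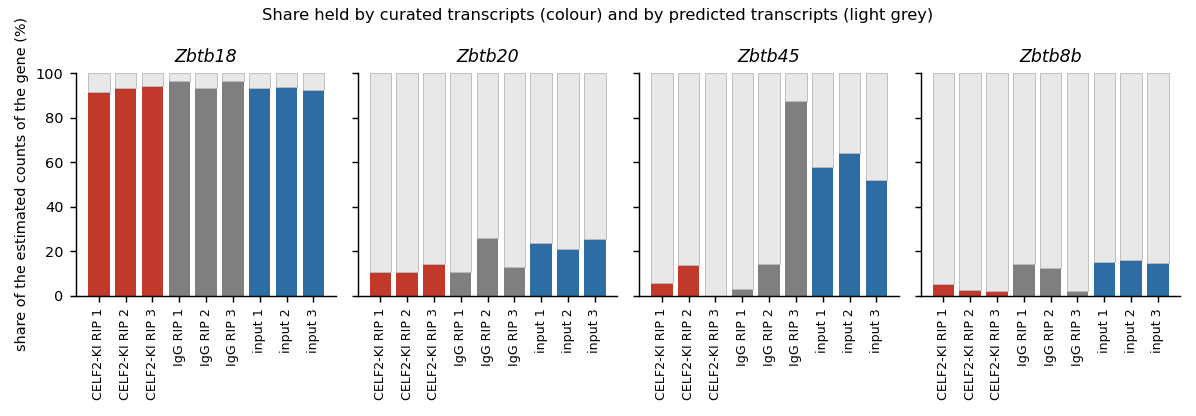
Percentage of the estimated counts of Zbtb18, Zbtb20, Zbtb45 and Zbtb8b held by curated transcripts in each of the 9 libraries (red for CELF2-KI RIP, grey for IgG RIP, blue for input), with the rest, on predicted transcripts, in light grey. Zbtb18 is nearly all curated throughout, whereas the Zbtb45 share is 52.1% to 64.3% in input and at most 13.8% in CELF2-KI RIP, with IgG RIP replicate 3 at 87.6%.

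**Figure D5:**
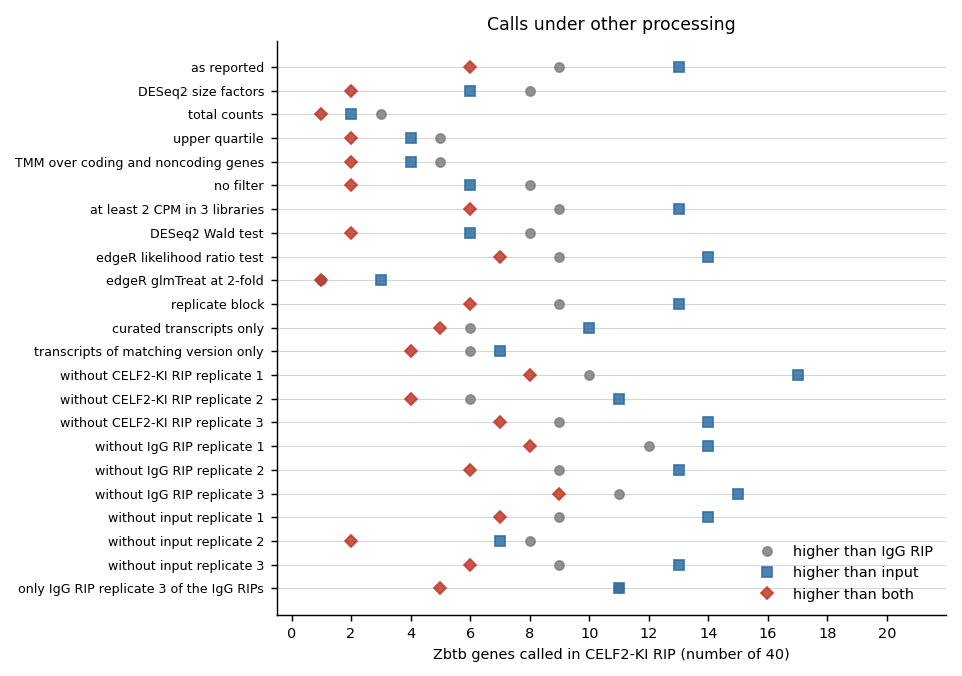
Number of the 40 Zbtb genes called in CELF2-KI RIP as higher than IgG RIP (grey circles), input (blue squares) and both (red diamonds), as reported and under 22 other settings, with equal counts drawn on top of each other. The reported counts are 9, 13 and 6, and the lowest counts come with total-count scaling and with a test against a 2-fold change.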

How the data were processed

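RNA-seq was performed by the authors on 9 rRNA-depleted, directional libraries from RIP and input of cytoplasmic cortical lysate, with 3 biological replicates per group by the labels. The submitters' processing notes and the methods name FastQC 0.11.9, fastp 0.23.4, Ribodetector 0.3.1, kallisto 0.51.1 and mm10. The authors deposited estimated counts per transcript, not normalized for depth or length. The methods name an Ensembl transcriptome, whereas the rows carry RefSeq accessions. Rows (86722 of 107384) could be assigned to a gene through a GRCm38.p6 table from RefSeq, by accession without its version, and gene positions come from that table. For the members, 168 of the 263 transcripts in that table had a row. All 9 columns were used.

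The rows of each gene were added up and rounded to whole numbers, and a protein-coding gene was tested where 3 or more libraries reached 0.5 CPM. All 9 libraries entered a single fit in edgeR 4.0.16 (R 4.3.3, limma 3.58.1) with TMM, glmQLFit and glmQLFTest, Benjamini-Hochberg adjustment, FDR under 0.01 and at least 2-fold. Scripts were tested on simulated data. SDs are over 3 libraries per group. SEs are those of the fitted log2 fold changes and come from the single fit to all 9 libraries. Intervals at 0 cover counting error only. Replicates of a group differed by more than sampling noise.

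Members are all genes with the symbol Zbtb, a number and at most 1 letter. Values in every library are given for members called in the same direction against both controls, the 3 largest and 3 smallest log2 fold changes over IgG RIP, members called between the controls, and Zbtb16, Zbtb18, Zbtb20 and Zbtb45. Zbtb33, Zbtb12 and other members were given the same detail, or named, after their values were seen. The members and lists were chosen with earlier results of these data known. Deviations from the group means were correlated between same-numbered libraries over 11534 genes. The correlations were 0.185, 0.122 and 0.213 for CELF2-KI RIP with input. For IgG RIP they were -0.07, 0.038 and -0.011 with CELF2-KI RIP, and 0.087, 0.064 and 0.008 with input. Differently numbered libraries were not correlated, so these values cannot show whether the numbers mark pairs. The reported fit was unpaired, and replicate numbers entered only in the alternative fit with a replicate block. Alternatives were DESeq2 1.42.0, other scalings, filters and tests, the replicate block, curated transcripts only, and leaving out each library. Protein, transcript and UTR sequences of the members were not analysed here.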

Additional observations from a re-analysis of the deposited data

How the results depend on the processing

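Under scaling by total counts, 3 members were called higher and 1 lower than IgG RIP, 2 higher and 2 lower than input, 1 higher than both, and 1 lower in IgG RIP than in input, with medians of 0.25 and 0.47. Upper-quartile scaling gave 5, 4 and 2 members higher than IgG RIP, input and both, with medians of 0.35 and 0.70. TMM over coding and noncoding genes gave 5, 4 and 2, with 2 lower than input, 1 lower in IgG RIP than in input, and medians of 0.40, 0.55 and -0.00. DESeq2 size factors and DESeq2's Wald test each gave 6 higher than input, 2 higher than both and 1 lower in IgG RIP than in input, and no filter gave 6 and 2. Of all tested genes, 10.3%, 11.2% and 8.91% were higher than input under these settings. The all-gene medians moved by -0.37, -0.26, -0.21 and -0.07 over IgG RIP and by -0.46, -0.24, -0.39 and -0.14 over input under total counts, upper quartile, TMM over all genes and DESeq2 size factors. edgeR's glmTreat at 2-fold gave 1 higher than IgG RIP, 3 than input, 1 than both, and 0 lower in either comparison or higher in IgG RIP than in input. Of all tested genes, glmTreat called 3.57% higher and 4.07% lower than IgG RIP, and 2.22% higher and 7.32% lower than input. It called 0.655% higher in IgG RIP than in input. With curated transcripts only, 0 members were called lower than IgG RIP or input and 0 higher in IgG RIP than in input, with a median of 0.44 over IgG RIP. Of all tested genes, 12.1% were then lower than IgG RIP, 13.5% lower than input and 3.31% higher in IgG RIP than in input. After seeing the data, 2 settings were added. With transcripts of matching version only, 7 were called higher and 0 lower than input and 0 lower than IgG RIP, with medians of 0.35 and 0.60. Of all tested genes, 9.67% were then higher and 14.0% lower than input, and 12.6% lower than IgG RIP. The other kept IgG RIP replicate 3, the library of lowest rRNA share, as the only IgG RIP, which is assumed to vary like the other groups. The member medians were then 0.71 over IgG RIP, 0.83 over input and 0.04 between the controls, beside 0.01, 0.07 and -0.04 over all tested genes. Zbtb2, Zbtb7b, Zbtb7c, Zbtb14 and Zbtb42 were at 0 in that library, so their fitted changes against IgG RIP rest on zeros there.

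Leaving out each library in turn gave 6 to 12 members higher and 0 to 2 lower than IgG RIP, 7 to 17 higher and 1 to 2 lower than input, 2 to 9 higher and 0 to 1 lower than both, and 1 to 3 higher and 0 to 1 lower in IgG RIP than in input. In the same fits 11.0% to 14.6% of all tested genes were higher and 11.4% to 15.1% lower than IgG RIP. Against input, 10.1% to 16.7% of all tested genes were higher and 13.4% to 17.2% lower. Between the controls, 3.65% to 10.1% were higher and 3.47% to 7.28% lower in IgG RIP. The member medians ranged from 0.51 to 0.82, 0.82 to 1.03 and 0.07 to 0.25. Without input replicate 2, 7 members were higher than input and 2 higher than both, since Zbtb4, Zbtb16, Zbtb18, Zbtb22, Zbtb39 and Zbtb46 lost their calls. Of all tested genes, 10.1% were then higher than input. Without CELF2-KI RIP replicate 2, 6 were higher than IgG RIP, beside 11.3% of all tested genes, and 4 higher than both. Without IgG RIP replicate 3, 9 were higher than both. The replicate block gave 9 higher and 1 lower than IgG RIP, 13 and 1 against input, and 1 and 0 between the controls, and changed no call. The shares of all tested genes were 13.3% and 12.7%, 14.0% and 15.1%, and 5.76% and 4.66% in the same order.

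The following turns are those of the members given in every library and of the other called values, and the cause was not tested. Zbtb17 over input, at 0.06 as reported, became -0.08, -0.39, -0.17 and -0.32 under DESeq2 size factors, total counts, upper quartile and TMM over all genes, -0.05 with no filter and with the single IgG RIP library, -0.07 by the Wald test, -0.01 with matching versions, -0.23 without CELF2-KI RIP replicate 3 and -0.18 without input replicate 2 (from -0.23 to 0.34 when leaving out each library). With curated transcripts, Zbtb8b turned to -0.62 and -0.57, and Zbtb48 to 7.4 over IgG RIP and -9.96 between the controls, fitted values that rest on rows at or near 0. With matching versions, Zbtb8b turned to -0.59, -0.61 and, between the controls, -0.02, Zbtb37 to -0.27 and Zbtb48 to 0.54 over input. With the single IgG RIP library, Zbtb17 turned to 0.50 over IgG RIP and -0.55 between the controls, and Zbtb45 without IgG RIP replicate 3 to 0.15 over IgG RIP (from -0.36 to 0.15 when leaving out each library). Between the controls, values near 0 turned for Zbtb5 (0.08, 0.02, 0.01, 0.02), Zbtb18 (0.09, 0.03, 0.01, 0.18), Zbtb39 (0.07, 0.07), Zbtb45 (0.06, 0.37) and Zbtb3 (0.15, 0.22), whose lowest values on leaving out a library were -0.08, -0.20, -0.13, -0.45 and -0.28. Among the remaining members, Zbtb2 turned without IgG RIP replicate 3 to -0.06 over IgG RIP and 0.16 between the controls, and Zbtb7c, Zbtb21 and Zbtb25 to -0.23, -0.09 and -0.14 over IgG RIP. Over all 40 members, the 3 comparisons and 22 settings, 116 of 2601 values turned, of which 6 belonged to called values, 130 lost a call and 46 gained one. IgG RIP replicate 2 was the library with the fewest protein-coding counts (9347321) and had 1 member at 0. IgG RIP replicate 3, with 13291403, had 5 members at 0. The part of depth in the low members was not tested.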
